A study of Mus musculus with 6 samples.

Results

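The aminoacyl-tRNA synthetase genes were examined in mouse hippocampus after repeated injections of lidocaine, a local anaesthetic acting on sodium channels. Members were taken from the gene table by a symbol of the synthetase pattern together with a description naming a tRNA synthetase or ligase. This rule used no measured value, although members were chosen with earlier results of these data known. The rule gave 37 of 22050 listed genes, of which 18 encode cytosolic enzymes, 17 encode mitochondrial enzymes and 2, Gars and Kars, encode enzymes of both compartments. The groups were 3 libraries of young mice given lidocaine injections and 3 libraries of young control mice, and the labels give no strain, sex, dose, injection schedule or control treatment. Animals had been allotted to the groups at random, and the study's old mice were not analysed here. RNA came from hippocampal tissue, so a lower level can stand for fewer cells of a type or for less RNA per cell, which cannot be told apart in bulk tissue. Whether the libraries stand for separate animals is not stated, so every p-value reflects library-to-library spread only, which may be technical.

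Each synthetase joins an amino acid to its matching transfer RNA, the step that fixes the genetic code before the ribosome reads it. Cytosolic protein synthesis and the separate ribosomes inside mitochondria mostly use different synthetases, all encoded in the nucleus, and several cytosolic enzymes are held in a large multi-synthetase complex. In humans, inherited changes in cytosolic synthetases such as GARS1, YARS1, AARS1 and HARS1 cause peripheral neuropathy, and changes in mitochondrial ones such as EARS2 and AARS2 cause disease of the brain's white matter. Many cytosolic synthetase genes are known targets of ATF4, the transcription factor that cells use when amino acids run short.

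Library totals ranged from 16013017 to 16984995 estimated counts with lidocaine and from 13887604 to 15990264 in controls. The labels name the mouse, while all 22050 rows carry rat Ensembl identifiers, so genes are named as the table names them and a level can depend on how reads of one species fell on gene models of the other, which was not tested. Excitatory neuron marker Slc17a7 stood at 3233, 3320 and 3608 CPM (counts scaled to library size) with lidocaine and at 2967, 3275 and 3123 CPM in controls. Among 17 matched hippocampal neuron markers none was at 0 in all 6 libraries, although Prox1, a marker of dentate granule cells, was listed at 0 in lidocaine 1, lidocaine 2 and control 1 and at 1.33 to 1.57 CPM elsewhere. Of 37 synthetase genes, 12 had fractional counts in at least 1 library, as can arise where reads are divided between genes, and 25 had whole counts, to within 0.01, in all 6.

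Because ATF4 binds a short element in several synthetase promoters, the core of that element was looked up in the mouse promoter sequences of RefSeq (build GRCm38.p6), which run from 250 bases before to 50 bases after each transcription start. The core searched was TGATGNAA, on either strand. Promoters were matched by symbol for 27 of 37 members. The core was found in 4 of 11 cytosolic members (36.4%), in 1 of the 2 genes of both compartments, Gars, and in 0 of 14 mitochondrial members (0%), against 4.51% of the 27025 genes in the promoter table. The sites are shown so that the values of these genes and of the ATF4 list can be read beside them. A match of letters is not shown to be a site of binding.

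For the promoters in which the core lay before the start, the last 120 bases before it are given 5′ to 3′ on the gene's strand, with the core in capitals. All 3 carry it on the opposite strand, so that it reads as TTNCATCA.
Aars, chr8:111033722-111033841, + strand: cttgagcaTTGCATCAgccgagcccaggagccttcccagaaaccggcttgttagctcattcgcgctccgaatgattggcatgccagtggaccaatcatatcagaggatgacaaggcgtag
Gars, chr6:55037881-55038000, + strand: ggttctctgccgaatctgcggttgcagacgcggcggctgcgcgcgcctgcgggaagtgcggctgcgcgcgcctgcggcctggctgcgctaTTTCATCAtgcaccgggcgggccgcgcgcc
Tars1, chr15:11399659-11399778, − strand: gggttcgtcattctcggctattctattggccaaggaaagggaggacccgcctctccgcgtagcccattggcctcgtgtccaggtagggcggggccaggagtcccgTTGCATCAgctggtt
In Aars the core began 112 bases before the start, in Gars 30 and in Tars1 15 bases before it. In Yars1 and Iars1 it lay just after the start, at positions 4 to 11 and 8 to 15, and Aars held another copy at positions 10 to 17. The 30 bases around these 3 copies follow.
Yars1, chr4:129189895-129189924, + strand: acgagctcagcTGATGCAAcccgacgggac
Iars1, chr13:49682126-49682155, + strand: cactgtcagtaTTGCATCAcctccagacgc
Aars, chr8:111033840-111033869, + strand: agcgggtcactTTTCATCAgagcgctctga
Of these 5 genes, Aars, Gars and Yars1 are among the 6 synthetase genes of highest level, whereas Iars1 and Tars1 are the 2 cytosolic members of lowest level.

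Cytosolic synthetase genes were expressed well above mitochondrial ones in every library. Levels were compared per transcript length, as FPKM (fragments per kilobase of transcript, scaled to sequencing depth). The median over the 18 cytosolic members was 17.5, 17.9 and 17.6 FPKM in lidocaine 1, 2 and 3, and 16.4, 16.8 and 15.8 FPKM in control 1, 2 and 3. The median over the 17 mitochondrial members was 3.29, 3.59 and 3.54 FPKM with lidocaine and 4.01, 3.23 and 2.98 FPKM in controls. The cytosolic median was therefore 5.33, 4.997 and 4.97 times the mitochondrial median with lidocaine and 4.09, 5.19 and 5.30 times in controls. The groups overlap, with lidocaine 1 the highest and control 1 the lowest of the 6 ratios. By means over the 6 libraries, no mitochondrial member reached the cytosolic median of 16.9 FPKM, and 10 cytosolic members had a higher mean than any mitochondrial one. Against the median of 5.49 FPKM over all 13408 tested genes, 17 of 18 cytosolic members and 3 of 17 mitochondrial members lay above.

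**Figure D1:**
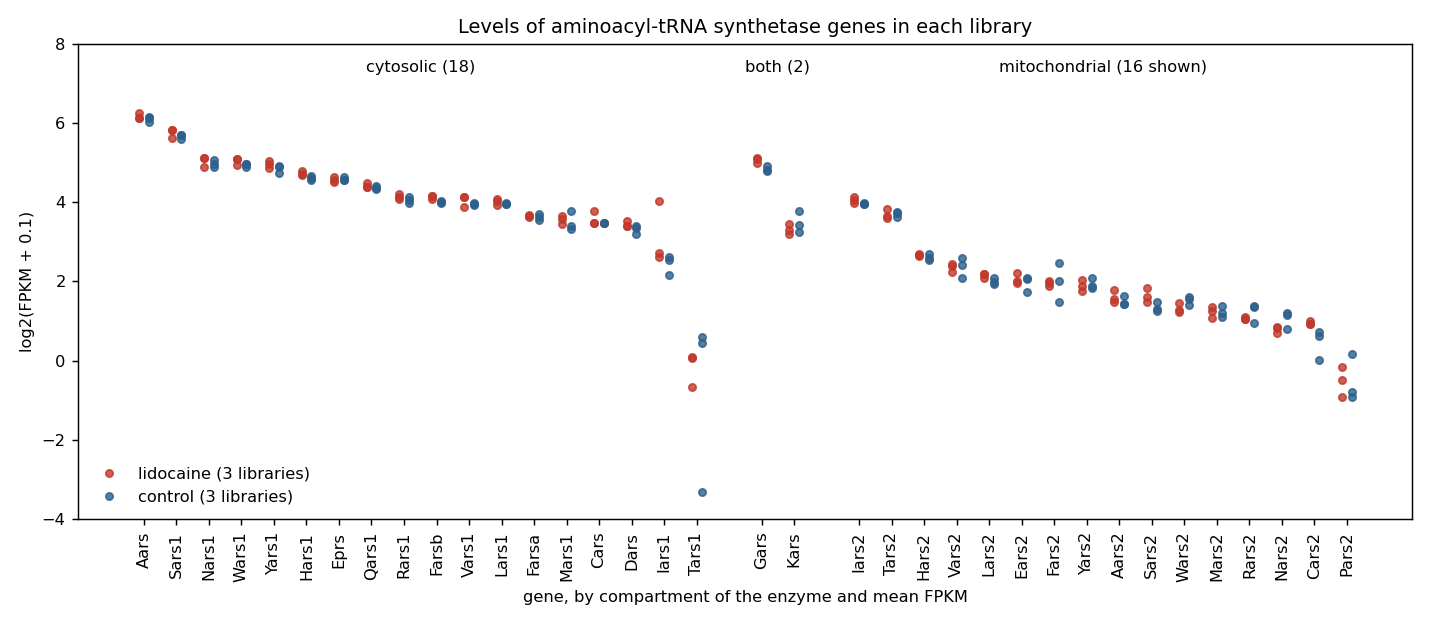
Level of 36 synthetase genes as log2(FPKM + 0.1) on the vertical axis, with 1 point per library, lidocaine (red) left of control (blue), and genes ordered by compartment and mean level. Cytosolic members run from Aars at a mean of 70.3 FPKM down to Tars1 at the bottom, and Iars2 and Tars2 stand apart at the top of the mitochondrial members.

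Among cytosolic enzymes the alanyl-tRNA synthetase gene Aars had the highest level. A mouse mutant of this gene, which impairs the enzyme's proofreading, is known for loss of cerebellar Purkinje neurons. Aars was at 70.4, 75.9 and 69.4 FPKM with lidocaine and at 69.6, 70.6 and 65.7 FPKM in controls, and above 95.3% of tested genes. Sars1, which charges serine tRNA, followed at 56.3, 57.0 and 49.4 FPKM with lidocaine and 51.95, 52.1 and 48.5 FPKM in controls. Its lidocaine and control ranges overlap, and they do not reach those of Aars. Nars1, for asparagine, had 34.7, 34.7 and 29.8 FPKM with lidocaine and 33.3, 31.3 and 29.5 FPKM in controls. The next genes in the order, Wars1 for tryptophan, Gars for glycine and Yars1 for tyrosine, had means over 6 libraries of 31.7, 31.1 and 29.9 FPKM with SDs of 1.85, 3.12 and 2.15. Means of neighbours from Nars1 to Yars1 therefore differed by less than these SDs, which pool both groups. Within each of the 6 libraries, however, Nars1 and Wars1 were both higher than Yars1. From Hars1 (histidine, 25.5 FPKM) the means descended through Eprs, Qars1, Rars1, Farsb, Vars1, Lars1, Farsa, Mars1 and Cars (cysteine, 11.5 FPKM). Dars, for aspartate, was at 10.5, 10.45 and 11.5 FPKM with lidocaine and at 9.11, 10.5 and 10.03 FPKM in controls.

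The 2 lowest cytosolic genes had fractional counts. Iars1, for isoleucine, was at 6.08, 16.4 and 6.43 FPKM with lidocaine and at 4.42, 6.0 and 5.76 FPKM in controls. Lidocaine 2 thus stood far above the other 5 libraries. Another row of the table, LOC103690033, is described as a cytoplasmic isoleucine tRNA ligase-like gene and was listed at 0 counts in all 6 libraries. Tars1, for threonine, was listed at 82.2, 44.5 and 81.6 counts with lidocaine and at 0, 105.9 and 103.55 counts in controls, with FPKM of 0.94, 0.53 and 0.97 with lidocaine and 0, 1.27 and 1.41 in controls. An exact 0 for a gene that every cell needs can be a failed estimate, so no group mean is given for Tars1, and its fitted log2 fold change, which is drawn and counted with the other members, rests on that 0. Its relative Tars3, another threonyl-tRNA synthetase, was listed at 12.31 counts in lidocaine 3, 8.12 counts in control 3 and 0 in the other libraries.

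Of the mitochondrial members, Iars2 and Tars2 stood apart from the rest. Iars2, for isoleucine, had 16.4, 15.8 and 17.4 FPKM with lidocaine and 15.4, 15.5 and 15.6 FPKM in controls. Tars2, for threonine, had 14.25, 12.5 and 12.03 FPKM with lidocaine and 12.2, 13.3 and 13.1 FPKM in controls. Both lay above every other mitochondrial member in each library. The histidine enzyme Hars2 came next at 6.29, 6.34 and 6.16 FPKM with lidocaine and 6.38, 5.96 and 5.76 FPKM in controls. The means of Vars2, Lars2, Ears2, Fars2 and Yars2 lay between 5.07 and 3.68 FPKM, with SDs over 6 libraries of 0.305 to 0.892, and those of Aars2, Sars2, Wars2, Mars2 and Rars2 between 2.85 and 2.13 FPKM.

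The lowest mitochondrial genes were Nars2, Cars2 and Pars2. Nars2, for asparagine, had 1.69, 1.68 and 1.52 FPKM with lidocaine and 2.20, 2.13 and 1.63 FPKM in controls. Cars2, for cysteine, had 1.80, 1.80 and 1.92 FPKM with lidocaine and 1.43, 0.92 and 1.56 FPKM in controls. Pars2, for proline, had 0.61, 0.43 and 0.79 FPKM with lidocaine and 1.03, 0.43 and 0.48 FPKM in controls, with lidocaine 2 and control 2 alike and control 1 highest. All 3 had fractional counts. Mars2, the methionine enzyme of mitochondria, had exactly the same count in every library as LOC100911305, a row described as a mitochondrial methionine tRNA ligase-like gene, and the sum of both rows was 201, 215 and 233 counts with lidocaine and 178, 208 and 210 counts in controls. The level printed for Mars2 is thus a share of reads divided evenly between 2 rows.

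For most amino acids the cytosolic and the mitochondrial enzyme have a gene each, which allows their levels to be compared within a library, free of library size. Of 18 such pairs, in which Eprs and Fars2 each appear in 2 pairs, the cytosolic gene was higher in all 6 libraries in 16 pairs and the mitochondrial gene in 1. The widest pair was Eprs, which charges both glutamate and proline tRNA, over Pars2, at 41.0, 54.3 and 28.6-fold in FPKM with lidocaine and 24.2, 54.7 and 49.4-fold in controls. Aars over Aars2 stood at 24.6, 28.1 and 20.6-fold with lidocaine and 26.8, 27.0 and 22.0-fold in controls, and Sars1 over Sars2 at 19.0, 21.1 and 14.2-fold with lidocaine and 22.9, 19.4 and 20.5-fold in controls. In these 3 pairs the groups overlapped.

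At the other end were threonine and isoleucine. Tars1 was 0.066, 0.0424 and 0.0806 times Tars2 with lidocaine and 0, 0.0956 and 0.108 times in controls, with the mitochondrial gene higher in all 6 libraries. Iars1 was 0.370, 1.03 and 0.369 times Iars2 with lidocaine and 0.287, 0.386 and 0.369 times in controls. Only in lidocaine 2 was the cytosolic isoleucine gene the higher of the pair, the library in which its fractional count stood out.

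Lidocaine and control libraries were compared for each of the 18 ratios, as log2 of FPKM + 0.1, by a two-sided exact permutation test that cannot give a p below 0.1 with 3 against 3. The groups did not overlap in 3 of the 18 pairs. Among all tested genes taken singly, groups were separate in CPM for 4.89% higher and 5.09% lower with lidocaine. How often ratios of other genes separate was not tested. Nars1 over Nars2 was 20.5, 20.7 and 19.6-fold with lidocaine and 15.1, 14.7 and 18.1-fold in controls. Wars1 over Wars2 was 12.7, 14.7 and 13.6-fold with lidocaine and 10.6, 10.9 and 11.6-fold in controls. The log2 ratio was higher with lidocaine by 0.34 for asparagine and by 0.30 for tryptophan. Lars1 over Lars2, for leucine, was 3.76, 3.61 and 3.67-fold with lidocaine and 3.82, 4.11 and 4.06-fold in controls, lower by a log2 difference of -0.12. Each had an exact permutation p of 0.1, and after Benjamini-Hochberg adjustment over the 18 pairs the smallest adjusted p was 0.6. Counts of Nars1, Nars2 and Lars2 are fractional, whereas those of Wars1, Wars2 and Lars1 are whole. The median difference over the 18 pairs was 0.06 on the log2 scale, positive in 12 of them. Among these 12, the difference of 0.58 for Tars1 over Tars2 rested on the 0 in control 1. That of 0.59 for Iars1 over Iars2 came mostly from lidocaine 2.

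**Figure D2:**
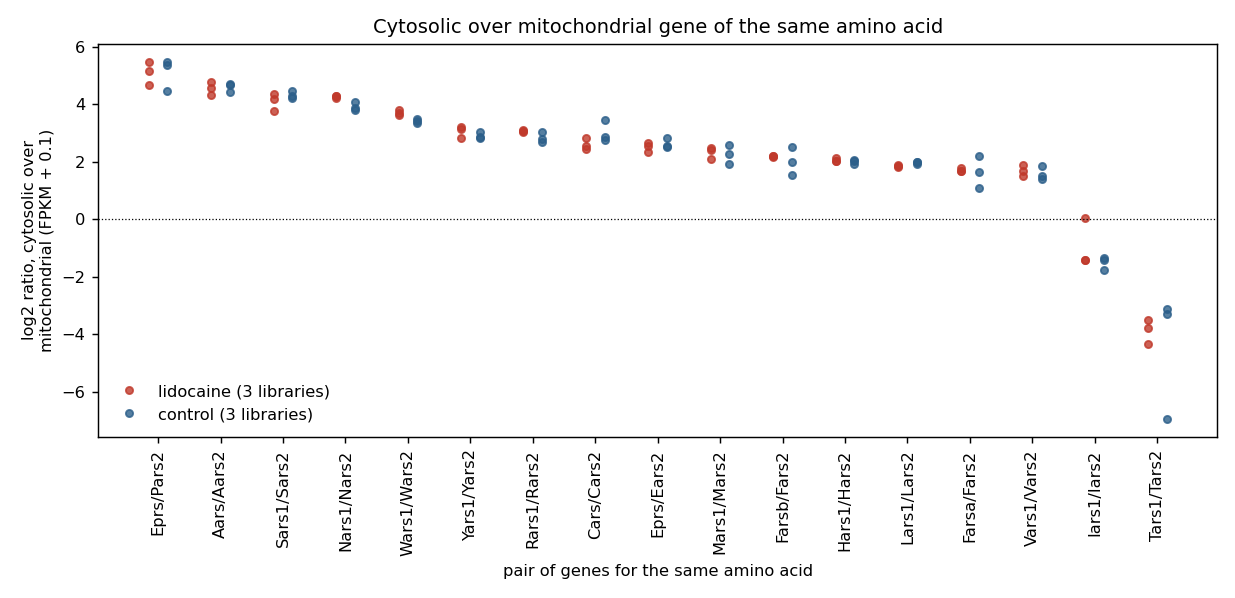
Ratio of the cytosolic to the mitochondrial gene of the same amino acid as log2 of FPKM + 0.1 on the vertical axis, with 1 point per library, lidocaine (red) left of control (blue). Of the 17 pairs drawn the cytosolic gene was higher in all 6 libraries in 15, and Tars1/Tars2 lies below 0 in every library.

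No synthetase gene differed between lidocaine and control hippocampus at the threshold used. Of 37 members, all of which passed the count filter, 0 were called by edgeR at a Benjamini-Hochberg-adjusted p under 0.05 over 13408 tested genes, 0 by DESeq2 and 0 by limma-voom. The background was equally low, with 0.0149% of all tested genes called by edgeR, 0.172% by DESeq2 and 0.0224% by limma-voom. At an unadjusted p under 0.05, edgeR gave 1 member, Gars, where 4.36% of all tested genes passed (2% higher and 2.36% lower). The 95% interval of the fold change lay within 1.5-fold in either direction for 29 members, comprising 16 of 18 cytosolic, 11 of 17 mitochondrial and both genes of the 2 compartments. It reached beyond 1.5-fold for Pars2, Rars2, Nars2, Cars2, Iars1, Fars2, Tars1 and Sars2, and beyond 2-fold for Pars2, Cars2, Iars1 and Tars1.

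**Figure D3:**
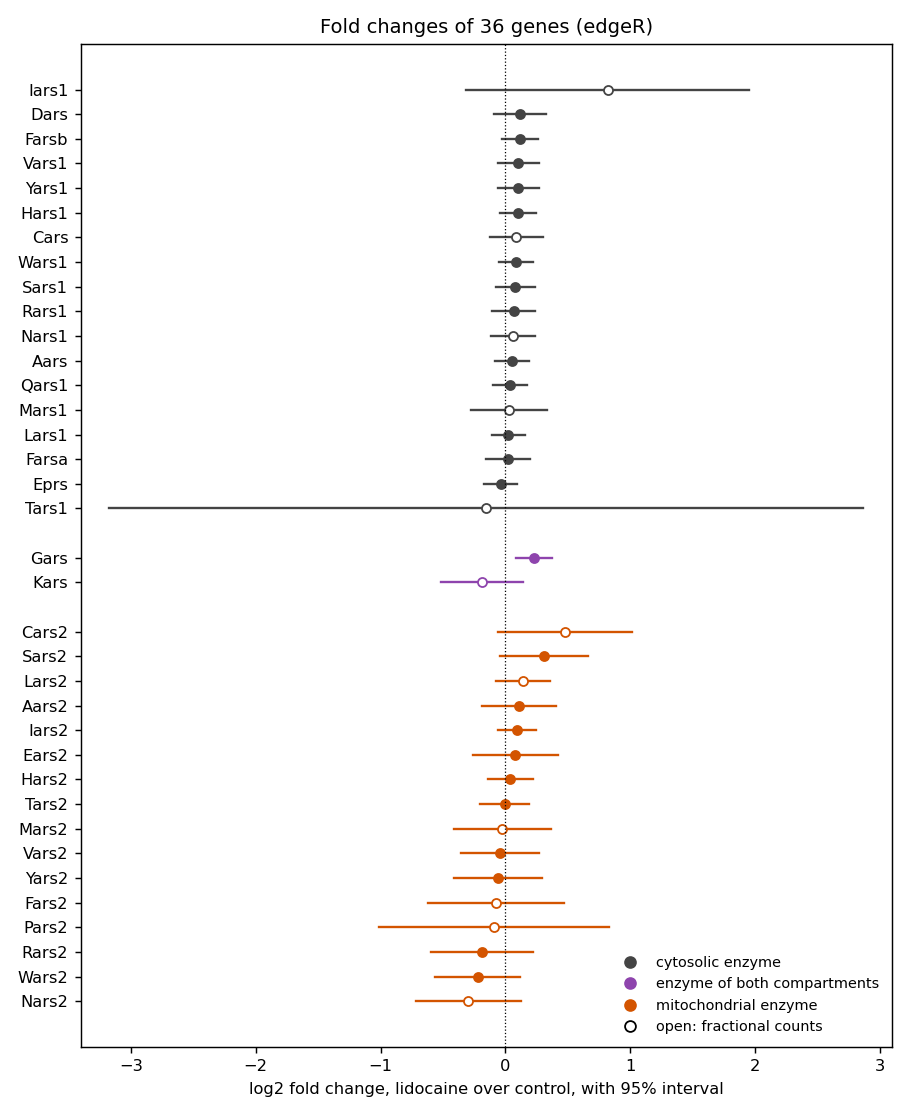
Log2 fold change of lidocaine over control for 36 genes with its 95% interval from edgeR, by compartment; open circles mark genes with fractional counts. Of the cytosolic members 16 of 18 lie right of 0, with Iars1 the farthest at 0.82, and Tars1 has the widest interval of the 36.

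Cytosolic members had small positive fold changes more often than not, while mitochondrial members lay on both sides of 0. Of 18 cytosolic members 16 had a positive value, with a median log2 fold change of 0.07, or 5.18%. Of 17 mitochondrial members 8 had a positive value, with a median of -0.0065. Over all tested genes 49.9% were positive and the median was -0.0003. Among members with whole counts, 12 of 13 cytosolic and 6 of 11 mitochondrial genes were positive, with medians of 0.08 and 0.04. Without lidocaine 2, the library in which Iars1 stood out, the cytosolic median was 0.04, with 15 of 18 positive. With a library left out, 14 to 17 of 18 cytosolic and 8 to 11 of 17 mitochondrial members were positive, at 14 and 11 without control 1. The difference between the compartments was not tested, since members of a list are not replicates. The mitochondrial median changed sign with the libraries used, from -0.02 without control 2 to 0.08 without control 1.

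Together the 37 genes took 0.249%, 0.263% and 0.241% of all counts in lidocaine 1, 2 and 3, and 0.238%, 0.240% and 0.235% in control 1, 2 and 3. The lidocaine libraries lay above all controls, also without Iars1, where the shares were 0.244%, 0.250% and 0.236% with lidocaine and 0.235%, 0.235% and 0.230% in controls. Lidocaine 3 is almost equal to control 1 and control 2 there. How often summed shares of other gene sets separate was not tested. Sums of some cell markers also differed between the groups. The summed level of 14 oligodendrocyte and myelin genes was 8651 to 11890 CPM with lidocaine and 11922 to 13885 CPM in controls, and that of 11 meningeal fibroblast genes was 295 to 325 CPM with lidocaine and 258 to 273 CPM in controls, with 0 genes of either list at 0 in all libraries. Of the myelin genes 13 of 14 had a negative log2 fold change, and of the fibroblast genes 9 of 11 a positive one. At an adjusted p under 0.05 edgeR called 0 genes of either list, where it called 0.0149% of all tested genes. DESeq2 called 1 gene of each list at that threshold, where it called 0.172% of all tested genes. The part of these cell types in the synthetase shares was not tested. The sum of 17 hippocampal neuron genes overlapped between the groups, at 7352 to 8320 CPM with lidocaine and 7352 to 7640 CPM in controls. Of these genes 10 had a positive and 7 a negative log2 fold change, and edgeR called 0. Groups were separate in 1 of them, Rbfox3, higher with lidocaine (5.88%), against 4.89% of all tested genes. Rbfox3 had a log2 fold change of 0.40 ± 0.15, and its counts are fractional. Sums of 9 astrocyte genes (7777 to 7909.5 CPM with lidocaine, 7638 to 8703 CPM in controls) and of 10 microglial genes (404 to 418 CPM with lidocaine, 349 to 437 CPM in controls) overlapped between the groups. So did the sum of 13 genes encoded in mitochondrial DNA, at 21986 to 28204 CPM with lidocaine and 24465 to 28113 CPM in controls, although all 13 had a negative log2 fold change.

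The gene with the smallest unadjusted p was Gars, whose glycyl-tRNA synthetase is made in a cytosolic and a mitochondrial form from the same gene. Gars stood at 135, 139 and 129 CPM with lidocaine and at 110.3, 120.4 and 113 CPM in controls. All lidocaine libraries lay above all controls. The mean was 134 ± 4.96 CPM with lidocaine and 115 ± 5.22 CPM in controls (SD, n = 3 each). The log2 fold change was 0.23 with an SE of 0.06, and its 95% interval ran between 0.08 and 0.37. It did not pass after adjustment over all genes in edgeR (unadjusted p = 0.00644, Benjamini-Hochberg-adjusted p = 0.995) or in DESeq2 (adjusted p = 0.397). Leaving out each library in turn moved its log2 fold change between 0.20 and 0.27.

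Kars, the lysine enzyme that also serves both compartments and sits in the multi-synthetase complex, went the other way. It had 34.9, 32.8 and 39.6 CPM with lidocaine and 38.5, 34.6 and 49.2 CPM in controls, where control 3 was highest. The groups overlapped, and the log2 fold change was -0.19 ± 0.14 (edgeR, adjusted p = 0.995). The counts of Kars are fractional.

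Groups were separate in 4 further members, all higher with lidocaine, and in no member lower. In all this made 5 of 37 members higher (13.5%), against 4.89% of all tested genes higher and 5.09% lower. Farsb, the beta subunit of the phenylalanine enzyme, had 65.9, 63.05 and 67.3 CPM with lidocaine and 60.98, 60.4 and 59.5 CPM in controls. Its log2 fold change was 0.12 ± 0.06. The histidine enzyme gene Hars1 had 89.2, 84.9 and 84.1 CPM with lidocaine and 80.2, 83.0 and 77.4 CPM in controls, a log2 fold change of 0.10 ± 0.06. For Iars2 the values were 82.5, 79.7 and 89.4 CPM with lidocaine and 77.8, 79.0 and 79.5 CPM in controls, with a log2 fold change of 0.09 ± 0.07. Lidocaine 2 and control 3 are almost equal there. Cars2, at 5.41, 5.40 and 5.91 CPM with lidocaine and 4.42, 2.84 and 4.78 CPM in controls, had 0.47 ± 0.23, with an interval from -0.06 to 1.01. Its counts are fractional. None of the 4 passed in edgeR, with adjusted p = 0.995 for each.

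**Figure D4:**
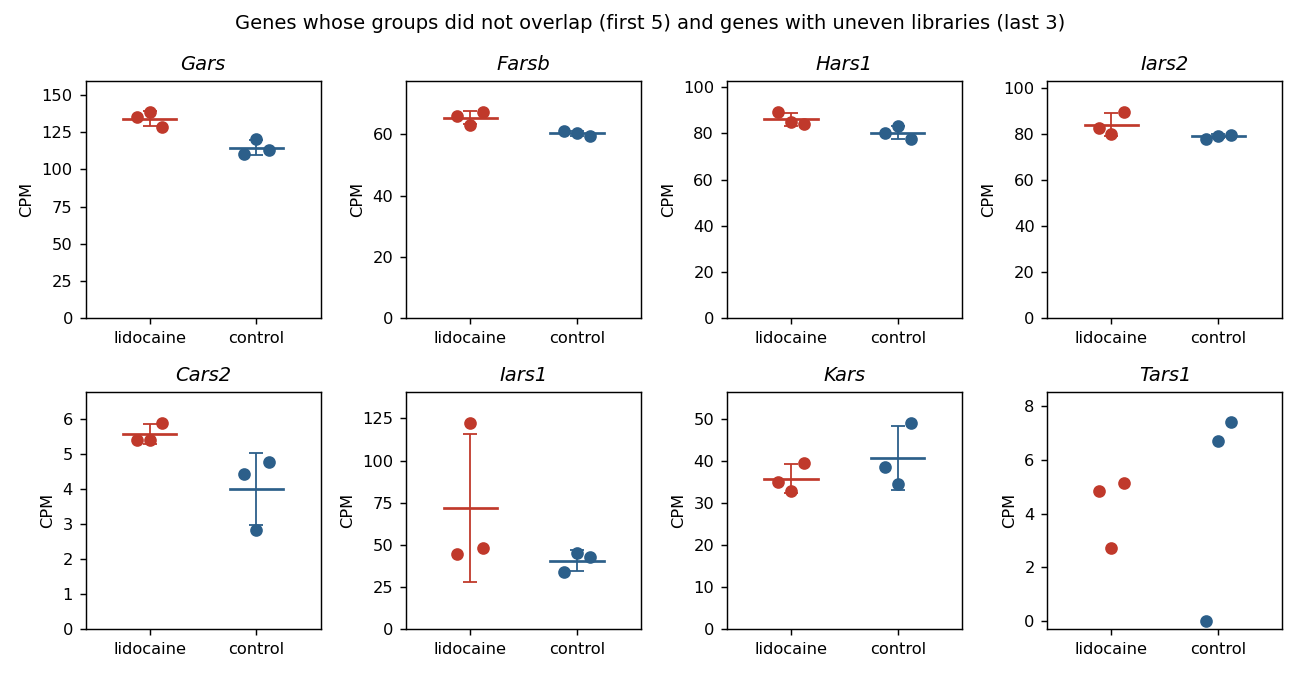
CPM (vertical axis) of 8 synthetase genes in the lidocaine (red, left) and control (blue, right) libraries, with the mean and SD of 3 libraries as lines, except for Tars1, which has a library at 0. Gars, Farsb, Hars1, Iars2 and Cars2 have separate groups, whereas Iars1 has 1 lidocaine library near 122 CPM and Kars and Tars1 overlap.

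Iars1 had the largest fold change of the 37 members, 0.82 ± 0.45 on the log2 scale, and it rested on 1 library. Its values were 44.6, 122.5 and 48.3 CPM with lidocaine and 33.5, 45.3 and 43.0 CPM in controls. Without lidocaine 2 the log2 fold change was 0.20, and with all libraries the adjusted p was 0.995 in edgeR. Mitochondrial members with small p were Sars2, for serine, and Nars2. Sars2 had 12.1, 10.995 and 14.45 CPM with lidocaine and 9.40, 11.1 and 9.78 CPM in controls, a log2 fold change of 0.31 ± 0.15. Nars2 had 5.12, 5.09 and 4.65 CPM with lidocaine and 6.71, 6.50 and 5.07 CPM in controls, a log2 fold change of -0.30 ± 0.18, the lowest of all members. For Sars2, lidocaine 2 and control 2 lay inside the range of the other group. For Nars2, lidocaine 1, lidocaine 2 and control 3 did. Neither gene passed (edgeR, adjusted p = 0.995).

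The 3 cytosolic members with the highest CPM, a scale that does not correct for length, were Aars, Eprs and Sars1, and their 95% intervals included 0. Aars had 406, 439 and 409 CPM with lidocaine and 408, 415 and 384 CPM in controls, or 0.05 on the log2 scale (95% interval -0.08 to 0.19). Sars1 had 176, 179 and 158 CPM with lidocaine and 165, 166 and 154 CPM in controls, or 0.08 (-0.08 to 0.24). Eprs, at 200.2, 188 and 185 CPM with lidocaine and 203, 192 and 193 CPM in controls, had -0.04 (-0.17 to 0.09). Eprs and Tars1 were the 2 cytosolic members with a negative fitted value. Aars2, the mitochondrial partner of Aars, had 18.3, 17.3 and 22.0 CPM with lidocaine and 16.9, 17.045 and 19.3 CPM in controls, a log2 fold change of 0.11 ± 0.13. Its groups overlapped, as did those of Tars2, Hars2 and Pars2, whose log2 fold changes were -0.0065, 0.04 and -0.09.

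Of the 8 members that belong to the multi-synthetase complex, 6 had a positive fold change, with a median of 0.03 on the log2 scale and 0 called. The other 12 cytosolic or shared members had 11 positive values and a median of 0.09. Per length, levels within the complex were uneven. Mean FPKM over the 6 libraries was 23.8 for Eprs, 20.9 for Qars1, which charges glutamine tRNA, 17.1 for Rars1, for arginine, and 15.8 for Lars1. It was 11.5 for Mars1, for methionine, 10.6 for Kars, 10.3 for Dars and 7.51 for Iars1. The scaffold proteins that hold the complex together had 17.6 FPKM for Aimp2, 9.72 for Aimp1 and 8.15 for Eef1e1. Aimp1 was at 20.9, 17.9 and 19.98 CPM with lidocaine and at 16.9, 17.2 and 17.7 CPM in controls. Its groups did not overlap, and its log2 fold change of 0.18 ± 0.11 was not called (edgeR, adjusted p = 0.995). The phenylalanine enzyme is built from equal numbers of alpha and beta chains, and Farsb exceeded Farsa by 1.41, 1.32 and 1.44-fold in FPKM with lidocaine and by 1.38, 1.29 and 1.23-fold in controls.

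By the chemistry of the active site, synthetases fall into class I and class II. The 18 class I genes had a median log2 fold change of 0.07 with 13 positive, and the 18 class II genes 0.06 with 12 positive, Eprs holding a domain of each class and being left out. Neither class thus stood apart from the other in count or median.

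Genes around the synthetases were read from lists of their pathway, and 0 members of any list were called by edgeR, where 0.0149% of all tested genes were. Of 14 tested scaffolds and related proteins, 9 were positive and 5 negative, with a median log2 fold change of 0.05. Among them Pstk, a kinase on the way to selenocysteine, had -0.39 ± 0.24, and Qrsl1 and Gatb, subunits of the amidotransferase that completes glutaminyl-tRNA in mitochondria, had 0.07 ± 0.12 and 0.11 ± 0.11. Of 43 tested genes of tRNA maturation and modification, 27 were positive and 16 negative, with a median of 0.04. Elp2, a subunit of the Elongator complex that modifies the wobble base of tRNA, had 151, 155 and 143 CPM with lidocaine and 123, 139 and 131 CPM in controls. These groups did not overlap, and its log2 fold change of 0.19 ± 0.07 was not called (edgeR, unadjusted p = 0.0225, adjusted p = 0.995). Trmt5, a tRNA methyltransferase, had 0.30 ± 0.13.

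The ATF4 list, which holds genes known to be induced together with cytosolic synthetases when amino acids run short, was balanced in sign. Of 31 tested members 15 were positive and 16 negative, with a median log2 fold change of -0.02. At an unadjusted p under 0.05 in edgeR, 3 were higher and 2 lower, where 2% and 2.36% of all tested genes were. Groups did not overlap in 5 members higher (16.1%) and 2 lower, against 4.89% and 5.09% of all tested genes. Atf4 itself had 158.5, 161 and 127 CPM with lidocaine and 172, 171 and 144 CPM in controls, with overlapping groups and a log2 fold change of -0.12 ± 0.11. Asns, asparagine synthetase and a classical ATF4 target, had 77.6, 79.6 and 84.6 CPM with lidocaine and 74.2, 75.9 and 70.3 CPM in controls. Its groups did not overlap, and its log2 fold change of 0.13 ± 0.07 was not called. Chac1, a glutathione-degrading target of ATF4, had -0.35 ± 0.24, and Ddit3, which encodes CHOP, had -0.09 ± 0.18. The members with the smallest p were the amino acid transporter Slc38a2 at -0.31 ± 0.10 and the lipoprotein receptor Vldlr at 0.20 ± 0.06 (edgeR, adjusted p = 0.995 for each). Trib3, another ATF4 target, was at most 0.189 CPM in any library and was not tested. The kinases and initiation factors of the same response had a median of -0.02 over 12 genes, with the amino acid sensor Eif2ak4 at -0.06 ± 0.11, Eif2b2 at 0.15 ± 0.07 and Eif2ak1 at 0.06 ± 0.06.

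Factors that use charged tRNA were compared by compartment as well. Cytosolic elongation and termination factors had a median log2 fold change of 0.03, with 9 of 14 positive. Eef1a2, the neuronal form of the factor that carries charged tRNA to the ribosome, had 0.12 ± 0.10, and Eef1a1, its form in other cells, -0.24 ± 0.16. Gtpbp1, a GTPase related to elongation factors, had 0.145 ± 0.069, and the elongation factor kinase Eef2k 0.16 ± 0.09. Mitochondrial translation factors had a median of 0.01 with 7 of 13 positive, and Tufm, the mitochondrial counterpart of Eef1a1, had 0.01 ± 0.08. Taco1, an activator of mitochondrial translation, had 0.17 ± 0.11, and the initiation factor Mtif3 had -0.68 ± 0.46 at 0.880 to 2.93 CPM. Mitochondrial ribosomal proteins had a median of 0.03 with 14 of 24 positive, and the 2 of smallest p were Mrpl15 at 0.20 ± 0.09 and Mrpl37 at 0.14 ± 0.08. All values in these lists come with an adjusted p of at least 0.995 in edgeR.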

How the data were processed

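Total RNA of mouse hippocampus was extracted and made into mRNA libraries with a SMARTer kit, per the labels' protocols. The submitters' processing notes name the build mm10; no aligner, counter or annotation is named in what was used here. The authors deposited counts and FPKM values (scaled for length and depth) per gene, per the file headers; the deposited counts were read as estimated counts without normalisation, since many are fractional and their totals differ. Columns were matched to samples by group initial and number.

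Estimated counts were rounded. Genes passing filterByExpr (13408) were scaled by TMM factors (0.991 to 1.009) and compared with edgeR 4.0.16 in R 4.3.3 (robust quasi-likelihood F-test, two-sided, Benjamini-Hochberg over all tested genes). SEs and intervals were derived from the F statistic. Alternatives used DESeq2 1.42.0, limma 3.58.1 (voom, and log2 FPKM with pseudocounts of 1 and 0.1), other scaling, filters and left-out libraries. Every pair of libraries differed beyond sampling noise (chi-square over its degrees of freedom at least 9.89).

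Members, lists and tests were chosen with earlier results of these data known. Values in every library are given for the 3 highest and 3 lowest members per compartment, the 3 of smallest p, those with separate groups, a 0 among fractional counts, and the extreme pairs. A single member is counted in the totals and not reported here by itself. Pathway list genes named are the 2 of smallest p, plus others chosen after their values were seen. Of the cell marker lists, given as sums, Slc17a7, Prox1 and Rbfox3 are named, also with their values known.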

Additional observations from a re-analysis of the deposited data

How the results depend on the processing

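No synthetase gene was called under any alternative. Over all genes, 2 were called, against 23 by DESeq2, 4 and 1 by limma on log2(FPKM + 0.1) and log2(FPKM + 1), 0 among whole-count genes, and 0 to 6 with a library left out (6 without lidocaine 1, 1 without control 1, 0 without lidocaine 2 or control 3). The cytosolic median stayed positive, at 0.04 to 0.10 with a library left out. The mitochondrial median was 0.0405 among whole-count genes and ran from -0.0247 to 0.0788 with a library left out. Members took 0.208% of counts with lidocaine and 0.199% in controls when whole-count genes alone were summed, and 0.234% in controls without Iars1. Without length scaling the cytosolic over mitochondrial ratio was 8.09 with lidocaine and 7.75 in controls. Pairs with separate groups numbered 3 to 7 with a library left out (5 without lidocaine 2, lidocaine 3 or control 2, 7 without control 3), where smaller groups separate more easily. Alternatives changed the sign of 29 of 528 member values, in 11 members. For Tars1 the log2 fold change was 0.59 and 0.032 by limma on FPKM with pseudocounts of 0.1 and 1, and 1.74 by limma-voom, and for Tars2 it was 0.0053 and 0.0051 by limma on FPKM. With a library left out the log2 fold change ran from -0.17 to 0.0724 for Vars2, -0.0158 to 0.0508 for Farsa, -0.33 to 0.42 for Pars2, -0.29 to 0.20 for Fars2, -0.73 to 0.33 for Tars1, -0.0126 to 0.15 for Cars, -0.14 to 0.0268 for Yars2, -0.0258 to 0.15 for Ears2, -0.0629 to 0.19 for Mars1, -0.10 to 0.06 for Mars2 and -0.0726 to 0.0359 for Tars2. The cause of these changes was not tested.

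Replicate numbers are shared by the groups, but deviations of same-numbered libraries correlated at 0.045, 0.027 and -0.001, so the numbers were not taken as pairs. With the replicate block 0 genes were called, Tars1 had 0.38, and 5 pairs of enzymes had all 3 same-number differences in 1 direction, another criterion than separate groups.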
